A study of Mus musculus with 8 samples.

Results

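The delta protocadherins are a family of single-gene ("non-clustered") protocadherins, and 10 of its genes were followed here among the 32726 gene identifiers of the count table. The family was chosen from the KO and WT values of 1 of its members, Pcdh9, which was lower in the KO libraries, to ask whether that difference is shared by its relatives. The other 9 genes, Pcdh1, Pcdh7, Pcdh8, Pcdh10, Pcdh11x, Pcdh17, Pcdh18, Pcdh19 and Pcdh20, entered by family name and not by their values. The values of Pcdh9 are therefore given as a description with no p, and nothing is read from where they lie among those of other genes.

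RNA was sequenced from primary cultures of embryonic mouse neurons kept for 5 days in vitro, with 4 libraries (KO1 to KO4) from constitutive Nuak1 knockout animals and 4 (WT1 to WT4) from wild-type animals. Nuak1 encodes a kinase related to AMPK, and the KO allele is carried by every cell of the animal, so glia in the cultures lack it too. The line is kept on a C57Bl/6JRj background. The culture medium contained no serum. The tissue field names cortex or hippocampus without saying which was used for a given library, whereas the study describes cortical neurons. The labels also give a sequencing lane, with 2 libraries of each genotype on lane A (KO1, KO4, WT1 and WT3) and 2 on lane B (KO2, KO3, WT2 and WT4). They give an unexplained strain code as well: BJ for KO1 to KO3, BK for KO4, WT2 and WT4, BO for WT1 and BQ for WT3. Only BK occurs in both genotypes.

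Protocadherins are cadherin-type membrane proteins whose extracellular repeats bind the same protein on a neighbouring cell, and in the developing brain each neuron type carries its own combination of them. The delta-1 genes (Pcdh1, Pcdh7, Pcdh9, Pcdh11x) encode proteins with a long extracellular part and a cytoplasmic motif that binds protein phosphatase 1. The delta-2 genes (Pcdh8, Pcdh10, Pcdh17, Pcdh18, Pcdh19) encode shorter proteins, several of which recruit the WAVE complex, a regulator of actin branching, and are known for roles in axon growth and in synapses. Pcdh20 is usually placed beside both subgroups. Unlike the alpha, beta and gamma protocadherins, which lie in tandem clusters, these are single genes outside those clusters.

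The members are spread over several chromosomes. In the GRCm38 assembly, Pcdh8 (chr14:79766772-79771312), Pcdh17 (chr14:84443563-84537565), Pcdh20 (chr14:88464743-88471396) and Pcdh9 (chr14:93013700-93892834) lie on chromosome 14. Pcdh10 (chr3:45378398-45434579) and Pcdh18 (chr3:49743291-49757383) lie on chromosome 3. Pcdh11x (chrX:120290238-120910622) and Pcdh19 (chrX:133582860-133689044) are X-linked. Pcdh7 (chr5:57716145-58133236) is the only member on its chromosome, and so is Pcdh1. The genes range from 4.54 kb (Pcdh8) to 879 kb (Pcdh9) in genomic span.

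Start-site sequences from RefSeq (GRCm38.p6) were matched to 8 of the 10 genes, each window running from 250 bases before to 50 bases after the transcription start. The 5-letter motif CCAAT, the core of the CCAAT box, was found on either strand in 7 of the 8 windows, all but that of Pcdh7, compared with 38.9% of the windows of 9942 tested genes and 37.9% of 27025 windows in all. The matches before the first listed start of each gene are printed below because this is the element most members share. They are read 5′ to 3′ on the strand of the gene with 10 bases on each side, and capitals mark CCAAT or, where the motif lies on the other strand, its reverse complement ATTGG.
Pcdh9, chr14:93890747-93890771, minus strand, 82 bases before the start: aagatgctggCCAATcaggacccgg
Pcdh8, chr14:79771366-79771390, minus strand, 68 bases before the start: ctaagcgaccATTGGctggcccctt
Pcdh10, chr3:45378338-45378362, plus strand, 50 bases before the start: ctcctcggcgATTGGttggcagaat
Pcdh17, chr14:84443452-84443476, plus strand, 101 bases before the start: tccgcctcccATTGGgcgtgggccg
Pcdh17, chr14:84443495-84443519, plus strand, 58 bases before the start: ccccacgccgATTGGctggcagaga
Pcdh18, chr3:49757334-49757358, minus strand, 32 bases before the start: aagctcgctgATTGGctggaagcga
Pcdh19, chrX:133689044-133689068, minus strand, 65 bases before the start: ctgcgcgctgATTGGctagtgcctg
Pcdh20, chr14:88471567-88471591, minus strand, 185 bases before the start: tttgccatcaCCAATagcgaaaatt

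In 6 of these 8 matches, covering the 5 delta-2 genes, the motif lay in the reverse orientation, and the matches of Pcdh9 and Pcdh20 lay in the forward orientation. A match describes letters in a window and is not a binding site. The other motifs searched, also on both strands, do not contain that one. The motif TATAAA was found in 1 member window (Pcdh8; 6.86% of tested genes) and GGGCGG in 4 (64.7% of tested genes). The motif CACGTG was found in 0 of 8 member windows, against 10.1% of tested genes, and CAGCTG likewise in 0, against 15.3%. The RefSeq starts of Pcdh7, Pcdh9, Pcdh18 and Pcdh19 lie inside the spans given above for these genes, and a further start is listed for Pcdh9, so a window describes a single start.

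Depth did not limit the measurement of most members. The libraries held between 31247078 and 67155004 counts, and Pcdh20, the least counted member, had at least 229 counts in every library. All 10 genes passed the filter on low counts that left 16272 genes to be tested. Nuak1 itself was at 1.96 to 2.72 CPM (counts per 1000000 counts of the library) in the KO libraries and 51.6 to 82.6 CPM in the WT libraries, as labelled. KO1 and WT1 stood apart from the other 6 libraries: the surrogate variable estimated from all genes, a fitted axis of variation not tied to genotype, was -0.558 and -0.621 in them and 0.048 to 0.392 in the others, and the neuronal tubulin Tubb3 was at 298.9 and 252.4 CPM against 725.5 to 1342 CPM. The neuronal gene Rbfox3 followed Tubb3, at 24.2 and 23.2 CPM in KO1 and WT1 and 38.5 to 72.2 CPM in the others. The synaptic gene Snap25 did not follow Tubb3, at 284.7 and 311.1 CPM in KO1 and WT1 and 242.9 to 298.6 CPM in the others. KO3 and WT4 differed from the other libraries in sex-linked transcripts, with Xist at 1.82 and 2.76 CPM and Ddx3y at 80.4 and 85.8 CPM.

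Neuronal identity was checked with marker genes. The 3 general neuronal markers found in the table, Tubb3 among them, summed to 608 to 1694 CPM (KO) and 587 to 1434 CPM (WT). All 8 projection neuron markers were detected, and their summed level ranged over 879 to 1114 CPM in the KO libraries and 873 to 1098 CPM in the WT libraries. Markers of other cells were present as well: the 9 interneuron markers summed to 215 to 352 CPM (KO) and 194 to 319 CPM (WT), and the 5 astrocyte markers to 584 to 1203 CPM (KO) and 545 to 946 CPM (WT). The 7 progenitor markers summed to 302 to 338 CPM (KO) and 253 to 323 CPM (WT), and the 6 oligodendrocyte lineage markers to 487 to 602 CPM and 464 to 583 CPM. Microglial markers were low, at 2.25 to 23.9 CPM (KO) and 2.54 to 10.2 CPM (WT), and so were endothelial and fibroblast markers, at 12.3 to 21.6 and 6.40 to 35.6 CPM, with endothelial Cldn5 at 0 in 4 of the 8 libraries. The 4 hippocampal markers summed to 110 to 185 CPM (KO) and 125 to 164 CPM (WT). The ranges overlapped between genotypes for each of these lists, but for the astrocyte markers only through KO4 (584 CPM): KO1, KO2 and KO3 (968, 1042 and 1203 CPM) lay above every WT library. Of the single astrocyte genes only Gfap had that order, at 73.8, 112.2 and 235.4 CPM against 9.90 to 56.7 CPM in WT. Slc1a3, the largest part of each sum, was at 637.2, 663.0 and 659.0 CPM there, below WT1 (681.8 CPM) and WT2 (691.8 CPM). The part of the astrocyte marker difference in the levels of the protocadherins was not tested. In such bulk samples, fewer cells of a type and less RNA per cell cannot be told apart.

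As a group, the delta protocadherins had lower fitted levels in KO than in WT neurons, and none of the 9 genes that entered by name passed the adjusted test alone. The fitted log2 fold change (KO over WT) was below 0 for 9 of the 9 genes that entered by name, against 46.2% of all tested genes, though for Pcdh1 and Pcdh20 the sign changed under some alternatives. The median over these 9 genes was -0.31, and over all tested genes 0.015. Of these 9 genes, 4 (Pcdh7, Pcdh8, Pcdh11x and Pcdh17) were lower and 0 higher at an unadjusted p under 0.05 in edgeR's quasi-likelihood test, against 5.75% of all tested genes lower and 4.87% higher at that level. The number lower was 0 with no surrogate variable or in lane A alone, where 269 of 16272 and 75 of 16238 tested genes were lower. It was 2 without KO2 or without KO3, where 680 of 16539 and 643 of 16351 were lower. It was 7 without WT3, where 1418 of 16425 were lower. No count is read from the fit with a term for strain, in which KO4 alone is set against WT2 and WT4. After Benjamini-Hochberg adjustment over all genes, 0 of the 9 passed, and across all genes 8 did (0.0492%), 6 of them lower in KO (0.0369%). The summed level of the 10 genes was 1302, 1300, 1317 and 1358 CPM in KO1 to KO4 and 1708, 1701, 1430 and 1496 CPM in WT1 to WT4. Without Pcdh9 the sums were 1121, 1144, 1163 and 1201 CPM in the KO and 1449, 1499, 1231 and 1288 CPM in the WT libraries. The 4 KO sums lay below the 4 WT sums both times, with WT3 nearest to the KO libraries.

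**Figure D1:**
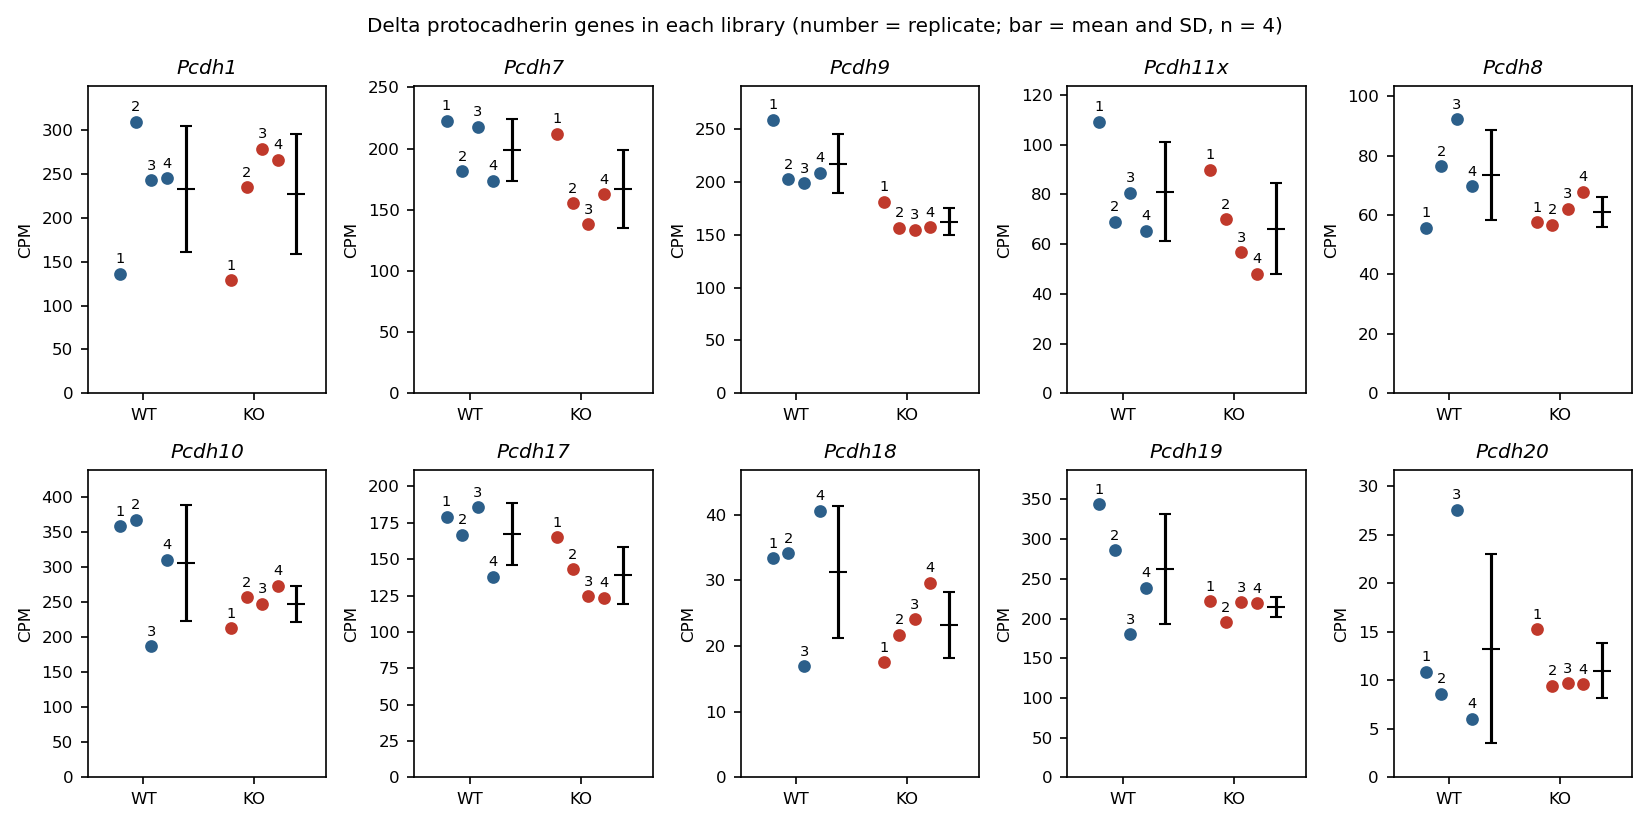
Level of each delta protocadherin gene in every library, in CPM (vertical axis of each panel, starting at 0), with WT libraries in blue on the left and KO libraries in red on the right, numbered by replicate, and beside each group a bar for the mean and 1 SD (n = 4). Pcdh9 is the gene whose KO points (154.6 to 181.1 CPM) all lie below its WT points (198.7 to 258.6 CPM), and WT3 is the lowest WT point for Pcdh10, Pcdh18 and Pcdh19.

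Pcdh9, a delta-1 protocadherin with high expression in cortical projection neurons and the gene from which the family was chosen, was at 181.1, 156.4, 154.6 and 157.2 CPM in KO1 to KO4 and at 258.6, 202.3, 198.7 and 208.6 CPM in WT1 to WT4. The groups did not overlap, and the first replicate was the highest library in each. The KO mean was 162.3 ± 12.6 CPM and the WT mean 217.0 ± 28.0 CPM (SD, 4 libraries each). In the fit, KO differed from WT by -0.46 on the log2 scale (SE 0.058), which is -27.3%. It was -0.46 within lane A and -0.47 within lane B, and lay between -0.49 and -0.40 under every alternative fitted. Pcdh9 was the 1 member of 10 whose KO libraries all lay below its WT libraries (0.86% of all tested genes had that pattern), and nothing is read from this, since these values chose the family. It took a similar part of the family's summed CPM in both genotypes, 11.6 to 13.9% in KO and 11.9 to 15.1% in WT libraries.

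The remaining delta-1 genes were split. Pcdh7, whose protein binds the phosphatase inhibitor SET, was at 212.0, 155.4, 138.2 and 162.8 CPM in KO1 to KO4 and at 222.7, 181.3, 217.7 and 173.6 CPM in WT1 to WT4. KO2, KO3 and KO4 lay below the lowest WT library, and KO1 lay among the higher WT libraries, so the groups overlapped. The log2 fold change was -0.31 (SE 0.11), with an unadjusted p of 0.0207 and an adjusted p of 0.397 in edgeR's quasi-likelihood test with Benjamini-Hochberg adjustment.

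Pcdh11x, an X-linked delta-1 gene, was at 89.9, 70.0, 56.7 and 48.1 CPM in KO1 to KO4 and at 109.2, 69.0, 80.6 and 65.4 CPM in WT1 to WT4. The 2 groups overlapped, and the highest library of each was again the first replicate. The log2 fold change was -0.37 (SE 0.12), and the same edgeR test gave an unadjusted p of 0.0106 and an adjusted p of 0.365. It was -0.49 within lane A and -0.15 within lane B, and that difference between lanes had, in edgeR's test of the interaction, an adjusted p of 1.0. Without KO3 and WT4, the pair that differed in Xist, it was -0.43.

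Pcdh1, known mostly from epithelia, where its protein binds SMAD3, lies on chromosome 18 (38185914 to 38212048) and was the member with the smallest difference. Its level was 128.6, 234.7, 278.5 and 265.9 CPM in KO1 to KO4 and 136.1, 308.9, 242.4 and 244.6 CPM in WT1 to WT4. KO1 and WT1 were far below the other libraries of their own genotype, the opposite of their place in Pcdh7, Pcdh9 and Pcdh11x, and the remaining values overlapped. The fitted difference was -0.06 on the log2 scale with an SE of 0.13 (by edgeR, adjusted p 0.892), and it was 0.051 in lane A alone and 0.062 without WT2, so the data set no direction for this gene.

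Among the delta-2 genes, Pcdh17, which gathers WAVE proteins at contacts between axons, was the most even across libraries. It was at 165.0, 142.9, 124.4 and 123.5 CPM in KO1 to KO4 and at 179.3, 166.8, 185.8 and 138.0 CPM in WT1 to WT4. WT4 lay below 2 KO libraries, so the groups overlapped. The log2 fold change was -0.32 (SE 0.11), with p of 0.0140 before and 0.369 after adjustment (edgeR).

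Pcdh8, also called arcadlin and known for drawing N-cadherin from the synaptic membrane through the kinase TAO2, was at 57.6, 56.7, 62.1 and 67.9 CPM in KO1 to KO4 and at 55.7, 76.5, 92.2 and 69.7 CPM in WT1 to WT4. The 4 KO libraries lay close together and below WT2, WT3 and WT4, whereas WT1 lay below all of them. The log2 fold change was -0.27 (SE 0.093), for which edgeR gave p of 0.0148 before and 0.369 after adjustment.

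For the other 3 delta-2 genes, WT3 was the lowest of the 8 libraries. Pcdh10, which recruits the WAVE complex in growing axons, was at 212.7, 257.2, 248.2 and 273.6 CPM in KO1 to KO4 and at 358.3, 367.8, 187.6 and 310.9 CPM in WT1 to WT4. Pcdh19, the X-linked gene mutated in a form of epilepsy that affects mainly girls, was at 222.1, 195.7, 220.5 and 219.6 CPM in the KO and at 343.7, 286.0, 180.6 and 238.9 CPM in the WT libraries. Pcdh18, whose protein binds the adaptor DAB1, was at 17.5, 21.7, 24.1 and 29.6 CPM in the KO and at 33.3, 34.2, 17.0 and 40.6 CPM in the WT libraries. In each of these genes WT3 was below every KO library, and WT1, WT2 and WT4 were above every KO library. The share of all tested genes with that pattern is not given here, so nothing is read from it.

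With all libraries, the log2 fold changes were -0.34 (SE 0.21) for Pcdh10, -0.31 (SE 0.14) for Pcdh19 and -0.46 (SE 0.27) for Pcdh18, with adjusted p of 0.588, 0.493 and 0.568 in edgeR's quasi-likelihood test with Benjamini-Hochberg adjustment. Each library was left out in turn, and the omission of WT3 is singled out here after its low values in these genes were seen, so it is not independent evidence of a difference. Without WT3 these log2 fold changes were -0.54, -0.45 and -0.73, and the adjusted p were 0.0468, 0.0973 and 0.0375 in the same test. With any other single library left out, neither Pcdh10 nor Pcdh18 passed the adjusted threshold. In that fit 7 of the 9 genes were lower and 1, Pcdh20, was higher at an unadjusted p under 0.05, against 8.63% of all tested genes lower and 6.93% higher. Of the 9, 2 were past the adjusted threshold (Pcdh10 and Pcdh18), and 0.432% of all tested genes were lower at that threshold.

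WT3 also differed from the other libraries in marker genes, in both directions. Of the projection neuron markers, the vesicular glutamate transporter Slc17a6 was at 44.2 CPM in WT3 and at 12.9 to 22.7 CPM in the other 7 libraries, whereas Tbr1 (86.3 CPM) and Bcl11b (100.4 CPM), transcription factors of deep-layer neurons, were lowest in WT3. Fezf2, also in that list, was at 52.9 CPM in WT3 and lower in KO1 (35.0 CPM) and WT1 (43.0 CPM). In WT3 the astrocyte (545 CPM), oligodendrocyte lineage (464 CPM), progenitor (253 CPM) and endothelial and fibroblast markers (6.40 CPM) had their lowest sums of the 8 libraries. Genes within these lists differed. Slc1a3 (396.8 CPM), Pdgfra (247.8 CPM) and Mki67 (26.1 CPM), among others, were lowest in WT3. Olig1 (78.6 CPM), Cspg4 (31.6 CPM), Mbp (28.2 CPM), Hes5 (13.7 CPM) and Vim (96.9 CPM) were highest there. WT3 is also the one library with strain code BQ. The part of these differences in the values of Pcdh10, Pcdh18 and Pcdh19 was not tested.

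Pcdh20, the member outside both subgroups, was at 15.3, 9.45, 9.71 and 9.59 CPM in KO1 to KO4 and at 10.9, 8.62, 27.6 and 6.03 CPM in WT1 to WT4. WT3 was here the highest library, the reverse of its place in Pcdh10, Pcdh18 and Pcdh19, and the groups overlapped. The fitted difference was -0.28 on the log2 scale with an SE of 0.46 (by edgeR, adjusted p 0.860), and it was 0.38 without WT3, so the data set no direction for this gene either.

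**Figure D2:**
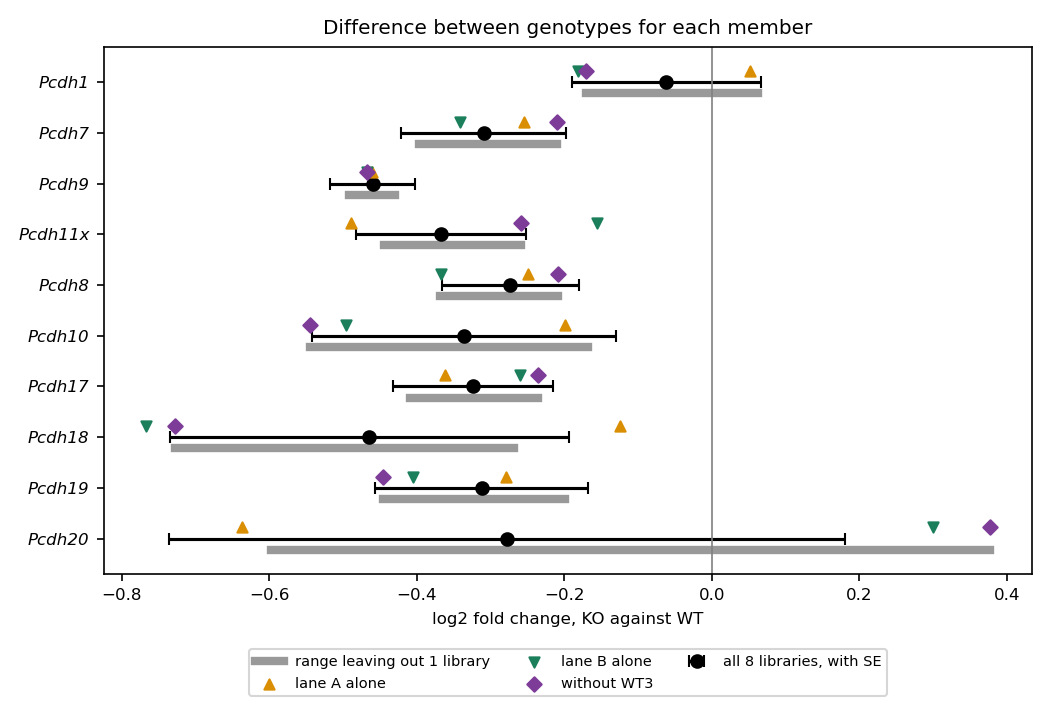
Fitted log2 fold change of each member (KO over WT, horizontal axis) from all 8 libraries (black points with bars of 1 SE), in each lane alone (triangles) and without WT3 (diamonds), with grey bars for the range when 1 library was left out and a line at 0. Values from all libraries lie between -0.46 (Pcdh9 and Pcdh18) and -0.06 (Pcdh1), Pcdh9 has the shortest bars, and Pcdh20, whose lane values lie farthest apart, lies above 0 in lane B and without WT3.

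The lanes, each with 2 KO and 2 WT libraries, were then compared. In lane B, 5 of the 9 genes that entered by name were lower at an unadjusted p under 0.05, against 5.6% of all tested genes, and 1 of them, Pcdh18, was past the adjusted threshold (-0.77, adjusted p 0.0066 by edgeR), against 0.327% of all tested genes lower. In lane A, which holds KO1, WT1 and WT3, 0 of the 9 were lower at an unadjusted p under 0.05, and only 0.462% of all tested genes were. Pcdh20 moved most between lanes, from -0.64 in lane A to 0.30 in lane B, followed by Pcdh18, from -0.12 to -0.77. The genotype by lane term was past the adjusted threshold for 0 of the 10 members and 0 of 16272 genes in edgeR's quasi-likelihood test, with 1.57% of all genes at an unadjusted p under 0.05, so no difference between lanes was shown.

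**Figure D3:**
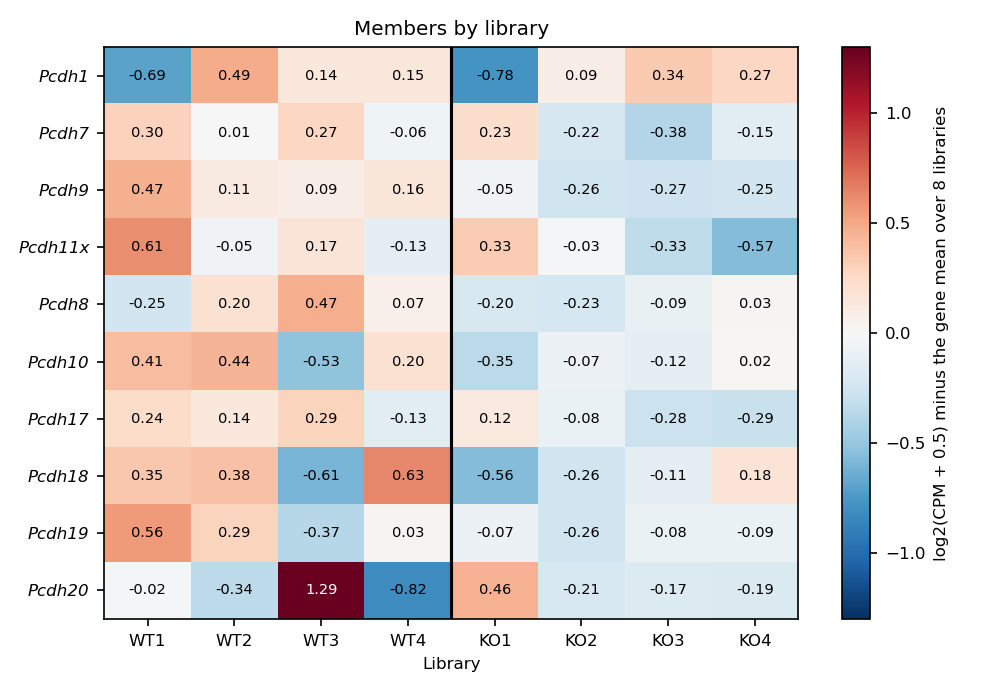
Level of the 10 members in each of the 8 libraries as log2 CPM centred on the mean of the gene over the libraries (colour scale and printed values, log2 units, with 0.5 added to the CPM; genes by subgroup down the side, libraries along the bottom). WT1 is high for Pcdh7, Pcdh9 and Pcdh11x and low for Pcdh1, and WT3 is low for Pcdh10, Pcdh18 and Pcdh19 and high for Pcdh20.

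The members were then set against the profile of Pcdh9 over the 8 libraries, measured as the root mean square difference of centred log2 CPM. Pcdh7 (0.17), Pcdh17 (0.17), Pcdh19 (0.20) and Pcdh11x (0.23) were nearest to it, Pcdh10 (0.30), Pcdh8 (0.32) and Pcdh18 (0.40) farther, and Pcdh1 (0.59) and Pcdh20 (0.62) farthest. Ranked among the 6840 tested genes that varied at least as much as Pcdh9, the 4 nearest members would take places 72, 92, 198 and 324, so many genes outside the family were closer. These places are a description and nothing more is read from them, since the values of Pcdh9 chose the family. The order did not follow the subgroups: the delta-1 gene Pcdh1 was farther from Pcdh9 than any delta-2 gene was. Of those 6840 genes, the 5 with the smallest difference were Scn2a1 (0.085), 4932438A13Rik (0.097), the unnamed ENSMUSG00000106959 (0.11), Ntrk3 (0.11) and Pcdhb16 (0.11). Scn2a1 encodes a voltage-gated sodium channel of axons, Ntrk3 the receptor of neurotrophin-3, and Pcdhb16 a clustered beta protocadherin. The identifier ENSMUSG00000106959 was at 0.14 to 0.61 CPM and its place rests on few counts. Scn2a1 was at 299 to 381 CPM in the KO and 357 to 522 CPM in the WT libraries. These genes were picked for their likeness, so their order of libraries is no finding, and the likenesses are descriptions over 8 libraries that include the outlying pair KO1 and WT1.

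The median log2 fold change was lower in classes of greater genomic length, and the members were placed within that pattern. Among 12656 tested genes with a GRCm38 span, the median log2 fold change was 0.05 for 5439 genes under 20 kb, 0.0029 for 5220 genes of 20 to 100 kb, -0.04 for 1804 genes of 100 to 500 kb and -0.15 for 193 genes over 500 kb. The median of the longest class ranged from -0.20 in lane A alone to -0.09 in lane B alone over the alternatives. At an unadjusted p under 0.05 in edgeR's quasi-likelihood test, 3.24% of the genes under 20 kb, 5.54% of those of 20 to 100 kb and 23.8% of those over 500 kb were lower. Pcdh9 and Pcdh11x belong to the longest class, and Pcdh11x, at -0.37, lay below its lower quartile of -0.26. Pcdh7 and Pcdh19, of 100 to 500 kb, lay below the lower quartile of -0.15 of their class. Pcdh8, Pcdh18 and Pcdh20, all under 20 kb, were at -0.27 (SE 0.093), -0.46 (SE 0.27) and -0.28 (SE 0.46) in a class whose lower quartile was -0.06. The part of gene length in the difference of any member was not tested.

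**Figure D4:**
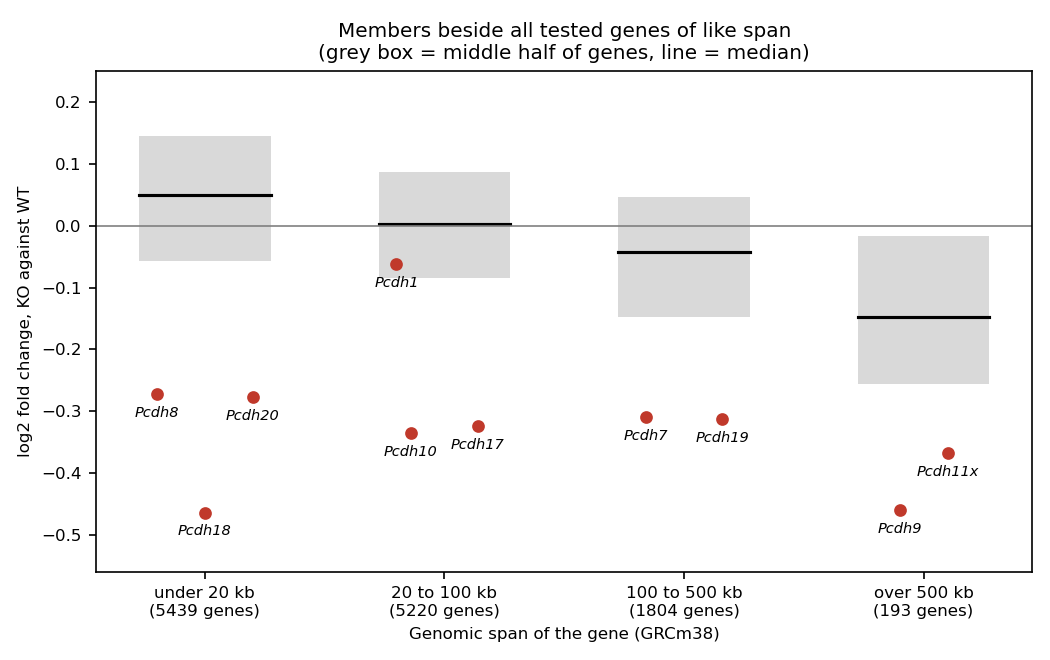
Log2 fold change (KO over WT, vertical axis) of all tested genes with a position, in 4 classes of genomic span (horizontal axis), with black lines at the medians and grey boxes from the lower to the upper quartile, and the members as named red points. The class medians run from 0.05 under 20 kb to -0.15 over 500 kb, and of the 9 genes that entered by name each apart from Pcdh1 lies below the lower quartile of its class. Pcdh9, whose values chose the family, is drawn as a description.

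Genes that work with the family were examined as lists. The WAVE complex, the actin regulator recruited by delta-2 proteins, had 9 of its 11 listed genes tested, with a median log2 fold change of 0.036. Of these, 2 were below and 7 above 0, and 0 had an unadjusted p under 0.05 in edgeR's quasi-likelihood test. Abi3 had 6 counts in all and was not tested, and Brk1 had no matched identifier. For the 10 other intracellular partners the median was 0.043 (-0.01 in lane B alone), and 0 passed the adjusted threshold. At an unadjusted p under 0.05 in the same edgeR test, 1 was lower and 3 were higher, against 5.75% and 4.87% of all tested genes.

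Set, the phosphatase inhibitor bound by PCDH7, averaged 43.9 ± 1.41 CPM over the KO and 37.5 ± 2.69 CPM over the WT libraries (SD, n = 4; log2 fold change 0.19, adjusted p 0.369 by edgeR). Ppp1ca, a catalytic subunit of the phosphatase bound by delta-1 proteins, was at 145.4 ± 27.0 and 131.0 ± 32.2 CPM (0.15, adjusted p 0.387). Mapk14, the p38 kinase of the PCDH8 pathway, was at 78.0 ± 4.54 and 68.7 ± 4.18 CPM (0.15, adjusted p 0.447). Taf1, the listed gene that was lower, encodes a subunit of the general transcription factor TFIID. Its binding to a member is not established here. Taf1 was at 142.0 ± 17.9 and 157.1 ± 26.2 CPM (-0.19, adjusted p 0.437 by edgeR).

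The large cadherins outside the family, giant adhesion proteins of the Fat, Dachsous and Celsr types with Pcdh12 and Pcdh15, had 9 of 11 listed genes tested. Pcdh12 had 11 counts in all and was not tested, and Dchs2 had no matched identifier. The median log2 fold change was -0.19, with 6 genes below and 3 above 0, and it was 0.02 in lane A alone. At an unadjusted p under 0.05, 2 were lower, against 5.75% of all tested genes, and 0 passed the adjusted threshold in edgeR's quasi-likelihood test, whereas 1 passed it, lower in KO, without WT3. Fat1 averaged 189.7 ± 11.4 CPM over the KO and 218.7 ± 26.6 CPM over the WT libraries (SD), a log2 fold change of -0.23 (SE 0.080). Fat4 averaged 258.1 ± 26.5 and 306.8 ± 26.2 CPM, a log2 fold change of -0.28 (SE 0.10).

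Little sharing of member counts with other genes was found in the sequences compared. Among protein-coding transcripts, 0 of other genes matched the longest transcript of any member over 50 bases or more at 95% identity or above. Pseudogenes, non-coding transcripts and the untranslated bases of Pcdh9 were not compared. The only exon overlap was that of Pcdh19 with 57 bases of the antisense gene Gm16795, which is 0.554% of its exon length. Levels were not compared between members, because the gene models used here hold only coding bases for Pcdh9 and would overstate its level per length.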

How the data were processed

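Poly-A RNA from 4 KO and 4 WT cultures was sequenced, and the authors deposited raw read counts per Ensembl gene, with 1 column per library and no pooling. Per the submitters' processing notes and the study's methods, reads were demultiplexed with bcl2fastq 2.17.1.14, trimmed with cutadapt 1.10, cleared of ribosomal RNA with Bowtie2 2.2.8, aligned to mm10 with STAR 2.5.3a and, where unique, counted with HTSeq 0.6.1p1 in union mode. Reads shared by overlapping genes are lost in that mode, and strand use is not given in the sources used here.

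The members and gene lists were chosen with earlier results of these data known. Of 32726 identifiers, 23260 were matched to a symbol. Total counts had a median of 39224504 per library, and no library repeated another (the closest pair differed by a chi-square of 18.8 per degree of freedom). In R 4.3.3, genes were filtered with filterByExpr, scaled by TMM and tested with edgeR 4.0.16 (robust quasi-likelihood F test, Benjamini-Hochberg adjustment over all genes, threshold 0.05), with 1 surrogate variable from sva 3.50.0 (estimated number 1, maximum 2). The SE is the absolute log2 fold change divided by the square root of F. CPM are counts per 1000000 counts of the library, and 0.5 was added before taking logs for profiles. The genotype by lane term was tested without a surrogate variable. P-values measure the spread between these libraries, which the methods describe as separate animals. Alternatives used DESeq2 1.42.0, limma-voom (limma 3.58.1), other covariates, filters and size factors, single lanes, and the omission of libraries. Transcripts were compared with blastn 2.17.0.

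Named were all 10 members, list genes with an unadjusted p under 0.05 (up to 5 a list), the 5 genes most like Pcdh9, genes overlapping a member, and Nuak1, Xist and Ddx3y as checks. Other genes (the single cell type markers given with values and the list genes left untested) were named after their values were seen. Spans are from RefSeq (GRCm38), exon overlaps and transcripts from GENCODE on NCBIM37, without mixing coordinates. Protein features were planned but not analysed here.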

Additional observations from a re-analysis of the deposited data

Results flagged for a closer look

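Within the genotypes, 4 values lay far from the other 3 libraries of their group, among 20 groups of 4 examined; chance marks about 1 in 20 such groups, so about 1 would be marked by chance. For Pcdh9 this was KO1, at 181.1 CPM against 154.6 to 157.2 CPM in the other KO libraries, and WT1, at 258.6 CPM where the remaining WT values ran from 198.7 to 208.6 CPM. For Pcdh19 it was KO2, at 195.7 CPM against 219.6 to 222.1 CPM. For Pcdh20 it was KO1, at 15.29 CPM against 9.452 to 9.707 CPM. Without both KO1 and WT1 the log2 fold change of Pcdh9 was -0.42, and without KO2 that of Pcdh19 was -0.27.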

How the results depend on the processing

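Pcdh9 was lower in KO under all 22 alternatives, and of the other members Pcdh7, Pcdh8, Pcdh10, Pcdh11x, Pcdh17, Pcdh18 and Pcdh19 were too. The number of members past the adjusted threshold was 1 with all libraries (Pcdh9, whose values chose the family, so the count is a description); it was 0 with 2 surrogate variables, with no surrogate variable, in lane A alone, with the strain label as a term, without both KO1 and WT1 and without both KO3 and WT4, and 2 in lane B alone. Leaving out 1 library gave 0 to 3, with 1 only without KO4 and 3 only without WT3. The number of the other 9 members lower at an unadjusted p under 0.05 was 4, against 5.75% of all tested genes. It was 0 in lane A alone and with no surrogate variable, and 2 to 7 with 1 library left out (2 without KO2 or KO3, 7 without WT3). The number over all genes was 75 of 16238 in lane A alone, 269 of 16272 with no surrogate variable and 1418 of 16425 without WT3. The number higher was 0, and 0 to 1 with 1 library left out. The family median of -0.32 was -0.25 with 2 surrogate variables, and -0.38 to -0.25 with 1 library left out. Only strain code BK holds both genotypes, so with a term for strain the genotype contrast rests on KO4 against WT2 and WT4. With that term the medians of the WAVE complex and of the other partners were 0.13 and 0.13. The median over the 9 genes that entered by name was -0.28. These values cannot separate strain from genotype.

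Pcdh1 reversed to 0.051 in lane A alone and 0.062 without WT2, in a range of -0.17 to 0.062 with 1 library left out. Pcdh20 reversed to 0.41 with 2 surrogate variables, 0.30 in lane B alone, 0.36 with the strain label, 0.38 without WT3 and 0.20 without both KO1 and WT1, in a range of -0.60 to 0.38 with 1 library left out. The causes were not tested. The replicate numbers did not pair the libraries: deviations of same-numbered libraries from their group means correlated at 0.87, 0.058, 0.34 and 0.11, and of the same-numbered pairs only KO1 and WT1 correlated best with each other. With a replicate block, 0 of the 9 genes that entered by name passed the adjusted threshold, with or without the surrogate variable. Pcdh20 was at 0.064 with the surrogate variable and -0.09 without it. Over all genes 2 were called lower and 1 higher in place of 8 calls. Over all genes, calls at the adjusted threshold ranged from 0 in lane A alone, where 96 genes had an unadjusted p under 0.05, through 8 with all libraries to 133 lower and 27 higher in DESeq2, so a missed threshold for a single member says little about its size. A change of about the SE of Pcdh20 (0.46) or Pcdh18 (0.27) could not be resolved with 4 libraries a group.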
